A study of Mus musculus with 10 samples.

Results

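The core of the Hedgehog pathway was followed in mouse basal cell carcinoma cells treated with an inhibitor of the TGFß receptor ALK5 or of AP-1. The 9 genes were the transcription factors Gli1, Gli2 and Gli3, the receptor Ptch1, the ligand-binding inhibitor Hhip, the signal transducer Smo, the GLI inhibitor Sufu and the co-receptors Boc and Cdon. They were taken by gene symbol from a pair of expression tables. All 9 were listed among the 16719 genes of the T-5224 table, and 8 of them, all but Hhip, were listed among the 17658 genes of the SB431542 table.

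ASZ001 is a mouse basal cell carcinoma line, used in the study as a model of resistance to SMO inhibitors. RNA of the cells was sequenced after 24 h in low-serum medium with DMSO vehicle, 10 µM SB431542, which blocks ALK5, or 20 µM T-5224, which blocks AP-1. The SB431542 table held 3 DMSO and 3 SB431542 libraries, and the T-5224 table held 2 DMSO and 2 T-5224 libraries. The comparisons ask which core genes depend on TGFß receptor or AP-1 activity in these cells. No DMSO library was common to both tables, and since the tables were normalized separately each inhibitor was tested within its own table only. All libraries came from 1 cell line, both inhibitors were used at 1 dose and 1 time, and every group including the controls was kept in low serum. The study calls the libraries biological replicates, and the sample labels do not say whether they came from separate cultures. The p-values measure the spread between these libraries, with the variance of each gene drawn in part from the other genes tested in its table.

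Hedgehog ligands bind PTCH1, which otherwise holds SMO inactive. Active SMO accumulates in the primary cilium and frees GLI proteins from SUFU, so that GLI2 and GLI1 act as activators and less GLI3 is cut into its repressor form. Basal cell carcinoma is driven by this pathway, usually through loss of PTCH1 or activation of SMO, and Gli1, Ptch1 and Hhip are themselves among the genes that GLI proteins switch on.

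Values are RPKM, reads per kilobase of transcript and per M mapped reads, as deposited. Library depth, estimated from the steps in the RPKM of short genes, was about 32 to about 52 M reads. On that estimate Gli1 rested on about 210 to about 697 reads per library and Smo on about 5605 to about 10163. These figures are rough, since only 46.4% to 62.9% of the values used per library fell near whole reads. The read counts also assume the longest annotated transcript. The 5 TGFß response genes on the list used as a check of the treatment were all lower with SB431542, and Pmepa1, a direct TGFß target, went from between 43.0 and 49.4 RPKM in DMSO to between 3.16 and 3.51 RPKM. With T-5224, 2 of these 5 were lower and 1 was higher. Markers of basal keratinocytes were abundant in every library, with a summed level of 11400 to 11610 RPKM over 10 genes in the DMSO libraries of the SB431542 table and 15780 to 16500 RPKM in those of the T-5224 table. The summed levels of the markers of fibroblasts, immune cells, endothelium and melanocytes were each at most 35.5 RPKM. The immune sum went from between 19.2 and 21.5 RPKM with DMSO to between 35.4 and 35.5 RPKM with T-5224, nearly all of it the lysosomal gene Cd68, while the defining marker Ptprc was at 0.012 RPKM or less in every library. DMSO library 1 of the SB431542 table stood apart, with a standard deviation from the other DMSO libraries of 0.272 on the log2 scale, against 0.161 and 0.190 for the others, and with the ribosomal transcript Rn45s at 770.3 RPKM against 2101 and 2155 RPKM. In the T-5224 libraries Rn45s was at 1862 and 5184 RPKM.

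The promoters of 4 core genes are shown because these genes were the ones that moved with T-5224 and whose windows lay outside annotated exons: Gli2, Smo and Sufu, which were lower, and Ptch1, which was higher. Each is the 250 bases before the RefSeq start site (RefSeq, GRCm38.p6), matched base for base to mm9, in the direction of transcription. The Gli2 window is chr1:120950197-120950446 on the minus strand, the Smo window chr6:29685247-29685496 on the plus strand, the Sufu window chr19:46471136-46471385 on the plus strand and the Ptch1 window chr13:63667044-63667293 on the minus strand. The first 3 lie upstream of the annotated gene, and the Ptch1 window lies inside the annotated gene, upstream of an internal start site.
Gli2: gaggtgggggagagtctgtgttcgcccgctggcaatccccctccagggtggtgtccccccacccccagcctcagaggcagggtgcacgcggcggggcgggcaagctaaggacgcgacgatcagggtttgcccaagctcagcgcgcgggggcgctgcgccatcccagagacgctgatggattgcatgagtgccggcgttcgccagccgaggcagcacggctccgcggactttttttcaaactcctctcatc
Smo: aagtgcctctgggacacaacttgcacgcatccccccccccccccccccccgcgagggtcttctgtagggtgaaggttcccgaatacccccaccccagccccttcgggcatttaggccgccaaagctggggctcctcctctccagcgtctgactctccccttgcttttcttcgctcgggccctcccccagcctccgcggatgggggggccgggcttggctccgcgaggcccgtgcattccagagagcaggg
Sufu: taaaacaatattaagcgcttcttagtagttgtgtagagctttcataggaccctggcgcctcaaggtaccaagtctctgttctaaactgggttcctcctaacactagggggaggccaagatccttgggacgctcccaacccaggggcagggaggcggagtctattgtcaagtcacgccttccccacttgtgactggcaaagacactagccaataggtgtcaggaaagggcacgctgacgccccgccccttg
Ptch1: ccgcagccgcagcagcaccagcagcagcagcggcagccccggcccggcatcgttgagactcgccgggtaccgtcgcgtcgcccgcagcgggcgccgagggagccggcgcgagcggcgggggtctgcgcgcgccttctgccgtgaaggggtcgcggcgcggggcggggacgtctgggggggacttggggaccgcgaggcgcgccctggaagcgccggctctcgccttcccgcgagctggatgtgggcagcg
All letters are in lower case because none of the searched motifs was found. On both strands of windows of 300 bases, from 250 before to 50 after the start site, the AP-1 motif TGANTCA, the GLI motif GACCACCCA and the SMAD palindrome GTCTAGAC were found in 0 of the 7 core gene windows available (Gli2, Gli3, Ptch1, Hhip, Smo, Sufu and Cdon). Of all 32851 windows, 7.81% held the AP-1 motif, 0.25% the GLI motif and 0.21% the SMAD palindrome. None of the motifs contains another, and the search says nothing of sites elsewhere in the genes. Windows of Gli1 and Boc were not analysed here.

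In the DMSO libraries the core genes covered a wide range of levels, with Smo at the top and Hhip near 0. In the SB431542 table the order from highest to lowest was Smo, Gli3, Sufu, Cdon, Boc, Gli1, Ptch1 and Gli2. In the T-5224 table it was Smo, Sufu, Cdon, Gli3, Boc, Gli1, Gli2, Ptch1 and Hhip. In both tables the ranges of neighbouring genes in the order did not overlap. Of all listed genes, tested or not, 92.0% in the SB431542 table and 93.9% in the T-5224 table were at or below the level of Smo, and 44.9% and 51.6% were at or below that of Gli1. The DMSO level of Gli3 was 16.4 ± 1.21 RPKM (SD, n = 3) in the SB431542 table and 8.86 ± 0.204 RPKM (SD, n = 2) in the T-5224 table, and that of Gli1 was 2.40 ± 0.102 and 5.02 ± 0.203 RPKM. DMSO levels outside the core also differed, such as Foxm1 at 74.9 and 16.3 RPKM and Gas1 at 46.6 and 183 RPKM, chosen after their values were seen. These differences between the tables were not tested.

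**Figure D1:**
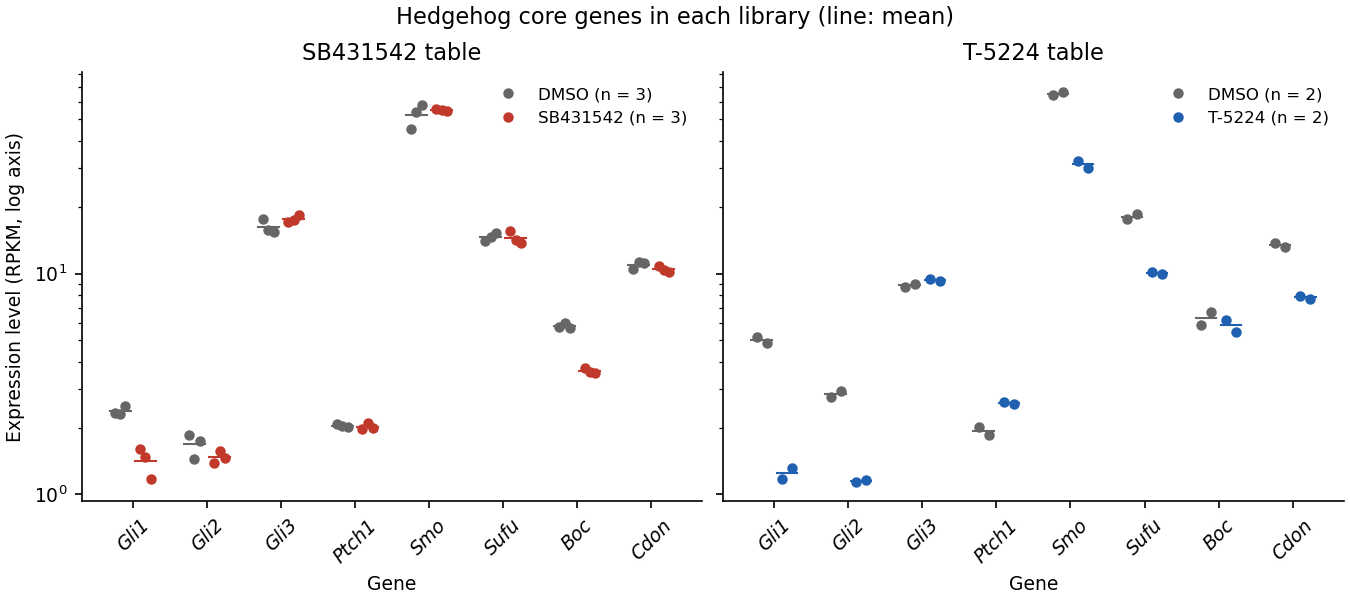
RPKM (log axis) of 8 Hedgehog core genes in every library, DMSO in gray, SB431542 in red (left) and T-5224 in blue (right), with a line at each group's mean. With T-5224 the libraries of Gli1, Gli2, Smo, Sufu and Cdon lie below all DMSO libraries, and with SB431542 those of Gli1 and Boc do. With T-5224 those of Gli3 and Ptch1 lie above all DMSO libraries. Gli3 did not pass there (adjusted p = 0.353, limma), so separation alone did not make a call. Of all genes tested, 39.4% were lower with T-5224 and 10.0% with SB431542 (limma), and 40.3% were higher with T-5224. The share of all genes without overlap was not counted. Hhip, at 0.006 RPKM or less, is not drawn.

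Of the 8 core genes tested with SB431542, 2 were lower and 0 were higher, with 0 beyond 2-fold either way. At an unadjusted p under 0.05 the counts were also 2 and 0. A gene was called where its adjusted p, from limma on log2(RPKM + 0.5) over all 10842 genes tested, was under 0.05. Among all genes tested, 10.0% were lower, 10.2% were higher, 0.581% were more than 2-fold lower and 0.231% were more than 2-fold higher. The genes that passed were Gli1 and Boc, each lower by less than 2-fold. The median log2 fold change of the 8 was -0.04, and that of all genes tested was 0.01. In a bulk measurement, fewer cells of a type and less RNA per cell cannot be told apart.

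With T-5224, 5 of the 8 core genes tested were lower, where 39.4% of all 10809 genes tested were. Of the 5, 3 (Gli1, Gli2 and Smo) were more than 2-fold lower, a call that 10.6% of all genes met. In the other direction 1 core gene, Ptch1, was higher, where 40.3% of all genes were, and 0 were more than 2-fold higher, where 10.4% of all genes were. The median log2 fold change of the 8 was -0.78, and that of all genes was 0.00344. The keratinocyte markers moved in the same libraries: 9 of 10 were lower and Epcam was higher, and their summed level was 2831 to 2971 RPKM with T-5224. With SB431542, 4 of 10 were lower and 2 were higher, with a summed level of 8040 to 8622 RPKM. Their part in the changes of the core genes was not tested.

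**Figure D2:**
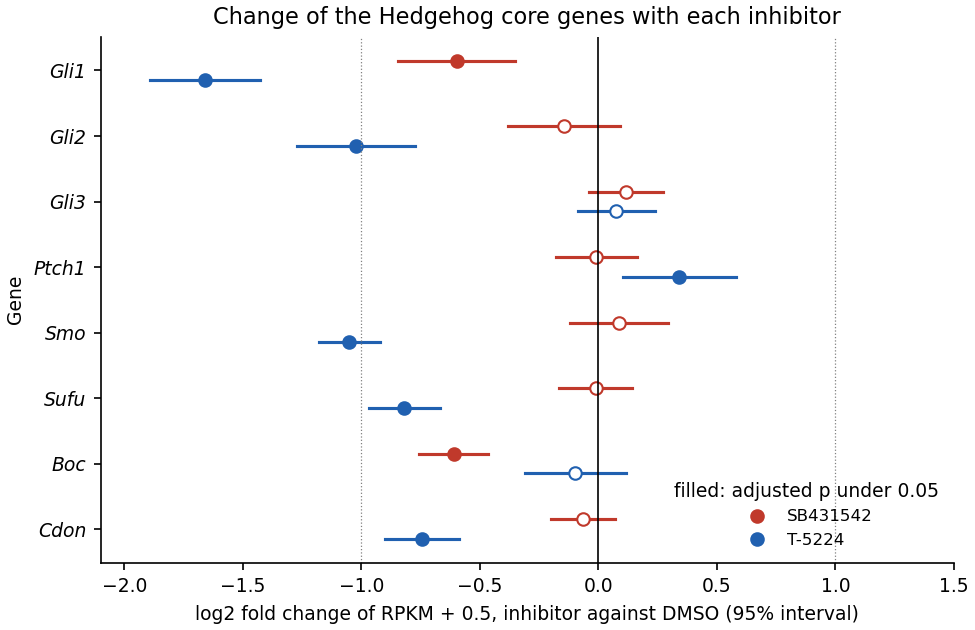
Log2 fold change of RPKM + 0.5 of each core gene with SB431542 (red) and T-5224 (blue) against DMSO, with 95% confidence intervals from limma; filled points passed an adjusted p of 0.05, and dotted lines mark a 2-fold change. Gli1 is the only core gene that was lower with both inhibitors, at -0.60 and -1.66.

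Gli1 (ENSMUSG00000025407.5, mm9 chromosome 10, 126766945 to 126778645), the GLI activator whose transcript is commonly read as a measure of pathway output, was lower with both inhibitors. In the SB431542 table it was at 2.35, 2.33 and 2.51 RPKM in the DMSO libraries and at 1.61, 1.48 and 1.17 RPKM with SB431542. Every treated value was lower than every DMSO value, and the mean was 1.69-fold lower. The log2 fold change was -0.60 (95% interval -0.85 to -0.35, SE 0.106, adjusted p = 0.00977, limma), and 2.41% of the genes tested had a log2 fold change at or below it. In the T-5224 table Gli1 was at 5.16 and 4.88 RPKM with DMSO and at 1.18 and 1.31 RPKM with T-5224. The groups were far apart, with a mean 4.03-fold lower. Here the log2 fold change was -1.66 (95% interval -1.89 to -1.43, SE 0.106, adjusted p = 5.21e-08, limma), the largest fall among the core genes, and 4% of all genes tested had a log2 fold change at or below it.

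Gli2 (ENSMUSG00000048402.8, chromosome 1, 120730709 to 120950196), the main activator downstream of SMO, was lower with T-5224. It was at 2.77 and 2.95 RPKM with DMSO and at 1.14 and 1.16 RPKM with T-5224, so that the groups did not overlap. This was a log2 fold change of -1.02 (95% interval -1.27 to -0.78, adjusted p = 5.68e-06, limma). It passed the 2-fold limit narrowly and was -0.98 without DMSO library 2 and -0.84 with a pseudocount of 1. In the SB431542 table Gli2 was at 1.86, 1.45 and 1.75 RPKM with DMSO and at 1.39, 1.57 and 1.46 RPKM with SB431542, and the groups overlapped. The log2 fold change of -0.15 (95% interval -0.38 to 0.09) did not pass (adjusted p = 0.34, limma).

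Gli3 (ENSMUSG00000021318.9, chromosome 13, 15555068 to 15821859), the GLI protein that mainly gives a repressor, did not pass in either table. It was at 17.7, 15.8 and 15.5 RPKM with DMSO and at 17.2, 17.5 and 18.5 RPKM with SB431542, where DMSO library 1 lay within the treated range. Its log2 fold change was 0.12 (95% interval -0.04 to 0.27, adjusted p = 0.258, limma). Without DMSO library 1, the library that stood apart, it was 0.17 with an adjusted p of 0.0215 (limma), so the call depends on that library. In the T-5224 table it was at 8.72 and 9.01 RPKM with DMSO and at 9.47 and 9.26 RPKM with T-5224. Both T-5224 libraries were above both DMSO libraries, by a log2 fold change of 0.08 (95% interval -0.08 to 0.24, adjusted p = 0.353, limma).

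The 3 Gli transcripts therefore stood in other proportions with the inhibitors. RPKM is a level per length, so the genes can be set side by side. Gli1 made up 10.7%, 11.9% and 12.7% of the summed RPKM of Gli1, Gli2 and Gli3 in the DMSO libraries of the SB431542 table and 7.95%, 7.20% and 5.55% with SB431542. In the other table its share was 31.0% and 29.0% with DMSO and 10.0% and 11.2% with T-5224. The share of Gli1 was lower in every treated library than in every DMSO library of its table, and the share of Gli3 was higher, at 85.2% to 87.5% against 78.5% to 80.8% with SB431542 and at 78.9% to 80.3% against 52.4% to 53.5% with T-5224. The summed level was 19.6 to 22 RPKM with DMSO and 20.2 to 21.1 RPKM with SB431542, and it was 16.6 to 16.8 RPKM with DMSO and 11.7 to 11.8 RPKM with T-5224. These shares are given as descriptions and were not tested.

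Ptch1 (ENSMUSG00000021466.5, chromosome 13, 63610261 to 63674474), the receptor that restrains SMO and is itself a GLI target, was lower with neither inhibitor. With SB431542 it was at 1.99, 2.102 and 2.002 RPKM, against 2.08, 2.04 and 2.02 RPKM with DMSO. The groups overlapped, and the log2 fold change was -0.01 (95% interval -0.18 to 0.16, adjusted p = 0.946, limma). With T-5224 it was at 2.62 and 2.57 RPKM, against 2.03 and 1.86 RPKM with DMSO. Both T-5224 libraries were above both DMSO libraries, and the mean was 1.33-fold higher with a log2 fold change of 0.34 (95% interval 0.10 to 0.58, adjusted p = 0.0126, limma). Without T-5224 library 1 the log2 fold change was 0.33 with an adjusted p of 0.0795, and without T-5224 library 2 it was 0.35 with an adjusted p of 0.0605 (limma), so this call does not hold with either T-5224 library left out. A value per gene does not tell which exons or which allele of Ptch1 the reads came from.

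Within a library, the ratio of Gli1 to Ptch1 was 1.13, 1.14 and 1.24 with DMSO and 0.809, 0.705 and 0.585 with SB431542. In the T-5224 table it was 2.54 and 2.62 with DMSO and 0.449 and 0.512 with T-5224. Gli1 was above Ptch1 in all 5 DMSO libraries and below it in all 5 libraries with an inhibitor.

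**Figure D3:**
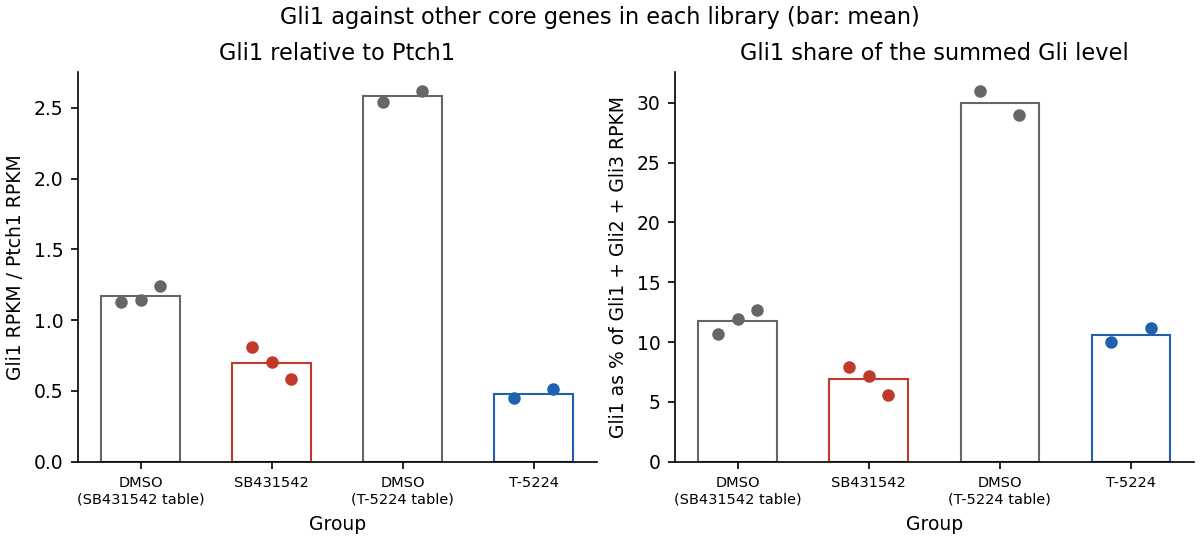
Ratio of Gli1 to Ptch1 RPKM (left) and Gli1 as a percentage of the summed RPKM of the 3 Gli genes (right) in each library; bars are group means and points are libraries. Both measures are lower in every treated library than in every DMSO library of the same table, with a mean ratio of 1.17 against 0.699 for SB431542 and of 2.58 against 0.481 for T-5224.

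Hhip (ENSMUSG00000064325.3, chromosome 8, 82490014 to 82581905), a membrane protein that binds Hedgehog ligand and is a GLI target, was barely detected. It was listed in the T-5224 table only, at 0 and 0.006 RPKM with DMSO and at 0 in both T-5224 libraries. The value of 0.006 RPKM corresponds to about 1 read. A count of 0 allows a level of up to 0.0126 to 0.0205 RPKM in these libraries (3 reads, counting error only), so no difference was detectable at this depth and Hhip was not tested.

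Smo (ENSMUSG00000001761.6, chromosome 6, 29685694 to 29711365) encodes the transducer that PTCH1 holds inactive and was the most abundant core transcript in every library. It was at 64.3 and 66.8 RPKM with DMSO and at 32.4 and 30.3 RPKM with T-5224. The groups did not overlap, and the mean was 2.09-fold lower with T-5224. On the log2 scale the change was -1.05 (95% interval -1.18 to -0.92, adjusted p = 1.65e-08, limma). With SB431542 it was at 56.0, 55.4 and 54.9 RPKM, against 45.3, 54.1 and 58.1 RPKM with DMSO. The treated libraries lay within the DMSO range, with a log2 fold change of 0.09 (95% interval -0.12 to 0.29, adjusted p = 0.526, limma).

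Sufu (ENSMUSG00000025231.9, chromosome 19, 46471386 to 46563294), which binds GLI proteins and restrains them, was also lower with T-5224. It was at 17.6 and 18.7 RPKM with DMSO and at 10.2 and 9.98 RPKM with T-5224, with no overlap. The log2 fold change was -0.82 (95% interval -0.97 to -0.67, adjusted p = 5.0e-07, limma), and the mean was 1.80-fold lower. The ratio of Smo to Sufu was 3.64 and 3.57 with DMSO and 3.20 and 3.03 with T-5224. Sufu was at 14.1, 14.6 and 15.3 RPKM with DMSO and at 15.7, 14.2 and 13.8 RPKM with SB431542, where the groups overlapped. Its log2 fold change was -0.01 (95% interval -0.16 to 0.14, adjusted p = 0.924, limma).

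The co-receptors Boc and Cdon, related cell surface proteins that present Hedgehog ligand to PTCH1, had unlike responses. Boc (ENSMUSG00000022687.5, chromosome 16, 44485158 to 44559010) was at 5.76, 5.995 and 5.69 RPKM with DMSO and at 3.75, 3.602 and 3.55 RPKM with SB431542. The groups did not overlap, and the mean was 1.60-fold lower. On the log2 scale this was -0.61 (95% interval -0.76 to -0.46, SE 0.0624, adjusted p = 0.00123, limma), and 2.32% of the genes tested had one at or below it. In the T-5224 table Boc was at 5.84 and 6.71 RPKM with DMSO and at 6.20 and 5.47 RPKM with T-5224, and the groups overlapped. The log2 fold change was -0.10 (95% interval -0.31 to 0.12, adjusted p = 0.367, limma).

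Cdon (ENSMUSG00000038119.7, chromosome 9, 35228713 to 35315236) was at 13.7 and 13.2 RPKM with DMSO and at 7.97 and 7.71 RPKM with T-5224. The groups did not overlap, and the log2 fold change was -0.74 (95% interval -0.90 to -0.59, adjusted p = 1.74e-06, limma). With SB431542 it was at 10.8, 10.4 and 10.2 RPKM, against 10.5, 11.3 and 11.1 RPKM with DMSO. The groups overlapped, with a log2 fold change of -0.07 (95% interval -0.20 to 0.07, adjusted p = 0.444, limma). Boc thus passed with SB431542 and Cdon with T-5224, and the difference between the inhibitors was not tested for either gene.

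**Figure D4:**
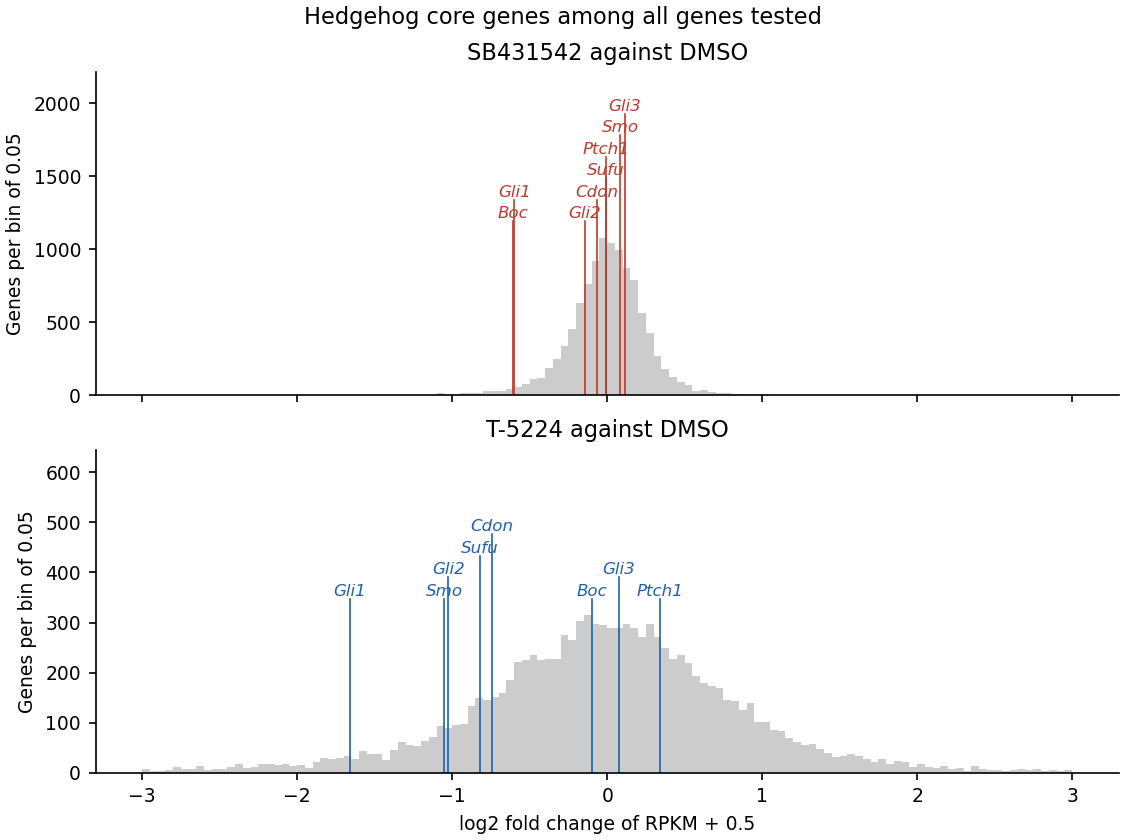
Histograms of the log2 fold change of RPKM + 0.5 of all genes tested with SB431542 (top) and T-5224 (bottom), in bins of 0.05, with the core genes marked by colored lines; genes beyond 3 in size are not drawn. The spread over all genes is wider with T-5224, and Gli1 has 4% of genes at or below it there and 2.41% with SB431542.

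The genes of the wider pathway were counted by role. No Hedgehog ligand was detected above 0.071 RPKM: Shh was listed in neither table, and Ihh and Dhh were at 0.071 and 0.019 RPKM or less. Of 9 genes for ligands and their release, 7 were listed in each table, all but Shh and Disp1. Neither table listed any gene at 0 in every library. Of those listed, only Hhat, the acyltransferase that modifies the ligand, was high enough to test. Its log2 fold change was -0.20 (adjusted p = 0.217, limma) with SB431542 and -0.03 (adjusted p = 0.796) with T-5224.

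Of the other genes for reception, 4 were tested in each table. With SB431542, 1 (Gpr161) was higher at an adjusted p of 0.0498 (limma), a call lost under both scaling alternatives, with a pseudocount of 1, with no filter, with no trend, with a replicate block and with any single library other than DMSO library 1 left out. With T-5224, 2 were lower (50.0%, where 39.4% of all genes were) and 2 were higher (50.0%, where 40.3% of all genes were). The co-receptor Gas1, the most abundant of them, was at 174 and 191 RPKM with DMSO and at 6.29 and 5.47 RPKM with T-5224. It was lower by a log2 fold change of -4.85 (adjusted p = 7.58e-13, limma), a larger fall than that of any core gene. With SB431542 Gas1 was at 49.4, 45.2 and 41.1 RPKM, against 40.4, 46.7 and 52.8 RPKM with DMSO, and did not pass (adjusted p = 0.816, limma). The other 3 are named because the count is small, after their values were seen: Gpr161, a ciliary receptor that restrains the pathway, was lower, and Grk2 and Arrb2, which act on SMO, were higher with log2 fold changes of -0.48, 0.98 and 0.47. Hhipl1, a relative of Hhip also chosen after its values were seen, was at 0.012 and 0.019 RPKM with DMSO and at 1.72 and 1.82 RPKM with T-5224. Its mean was under the limit for testing. So was that of Arrb1, the other arrestin gene of the list, likewise chosen after its values were seen. Arrb1 was at 0.631 and 1.017 RPKM with DMSO and at 0.06 and 0.043 RPKM with T-5224.

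Genes that process GLI proteins, such as kinases and ubiquitin ligase subunits, did not pass with SB431542 in either direction by limma (0 of 22 tested, median log2 fold change -0.03), and at an unadjusted p under 0.05 there were 4 lower and 2 higher. With T-5224, 13 of 23 were lower (56.5%, where 39.4% of all genes were) and 5 were higher (21.7%, where 40.3% of all genes were), with a median of -0.24. Of these 13, 2 were more than 2-fold lower, which is 8.7% of the list where 10.6% of all genes were. Stk36, the mammalian relative of the fly kinase Fused, was at 2.25 and 2.18 RPKM with DMSO and at 0.395 and 0.312 RPKM with T-5224 (log2 fold change -1.67, adjusted p = 3.55e-07, limma). It passed the limit of a mean of 1 RPKM only through its DMSO level, and in the SB431542 table it was under the limit and not tested. Dyrk2, a kinase of GLI proteins, was at 29.8 and 32.1 RPKM with DMSO and at 12.9 and 12.3 RPKM with T-5224 (log2 fold change -1.26, adjusted p = 1.10e-08, limma). The most abundant gene of the list, Prkar1a, a regulatory subunit of protein kinase A, did not pass with T-5224 (log2 fold change -0.07, adjusted p = 0.264, limma).

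Genes of the primary cilium, the organelle in which SMO signals, were lower in 10 of 30 tested with SB431542 (33.3%, where 10.0% of all genes were) and higher in 0 by limma (10.2% of all genes). At an unadjusted p under 0.05 the counts were 15 and 0. Over the list the median was -0.23 on the log2 scale, and 29 of the 30 values were negative, where 48.4% of those of all genes tested were. The genes were measured in the same libraries, so their values are not independent. The largest fall was that of Tctn2, at -0.69 (adjusted p = 0.00178, limma). The count of 10 was 5 without SB431542 library 1 and 4 without library 2 or without library 3. With T-5224, 17 of 29 were lower (58.6%, where 39.4% of all genes were) and 8 were higher (27.6%, where 40.3% of all genes were), and 5 were more than 2-fold lower (17.2%, where 10.6% of all genes were). Of the 8, Dync2h1 passed the limit for testing only through its T-5224 level. It was at 0.919 and 0.983 RPKM with DMSO and at 1.475 and 1.647 RPKM with T-5224. Genes of the transition zone at the base of the cilium went both ways. Tmem67, B9d1 and Cc2d2a were lower at -0.75, -0.73 and -0.55. Tctn2 was at 13.0 and 11.3 RPKM with DMSO and at 2.42 and 2.22 RPKM with T-5224 (log2 fold change -2.16, adjusted p = 2.38e-09, limma), and Rpgrip1l had a log2 fold change of -1.58, while Mks1 and Tctn1 were higher at 0.79 (adjusted p = 3.99e-05) and 0.38 (adjusted p = 0.00524, limma). The complex that binds SMO in the cilium and its anchors also went both ways, with Evc and Iqce lower at -1.80 and -1.09 and Evc2 and Efcab7 higher at 0.34 (adjusted p = 0.00152) and 0.43 (adjusted p = 0.00101, limma). Among the intraflagellar transport genes only Ift172 was higher, at 1.12. Ift80 was lower at -1.24, Ift88 at -0.99, Ift27 at -0.57, Ift140 at -0.44, Ift52 at -0.27 and Ift20 at -0.26. Ift81 and Ift122 did not pass. Dync2h1, Tmem67, B9d1, Cc2d2a, Mks1, Tctn1, Evc2 and Efcab7 are named after their values were seen. So are the intraflagellar transport genes other than Ift80 and Ift172. The most abundant cilium gene, Tulp3, which carries receptors into the cilium, was lower with both, by log2 fold changes of -0.49 (adjusted p = 0.00453) and -0.78 (adjusted p = 1.01e-07, limma).

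Of the genes described as Hedgehog targets in other settings, 1 of 11 tested was lower with SB431542 (9.09%, where 10.0% of all genes were) and 5 were higher (45.5%, where 10.2% of all genes were), with a median log2 fold change of 0.21. The higher genes, named after their values were seen, were the cyclins Ccnd1 and Ccnd2, the survival gene Bcl2, the mitotic regulator Foxm1 and the Wnt antagonist Sfrp1. Ccnd1 was at 42.5, 47.4 and 44.7 RPKM with DMSO and at 81.5, 92.7 and 94.97 RPKM with SB431542 (log2 fold change 0.99, adjusted p = 0.000311, limma). Ccnd2, the most abundant gene of the list, had a log2 fold change of 0.44 (adjusted p = 0.00178, limma). The lower gene was Sox9, a hair follicle transcription factor, at -0.56 (adjusted p = 0.0109, limma). The count of 5 was 3 with any library other than DMSO library 1 left out, and Sox9 no longer passed without SB431542 library 2 or without library 3.

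With T-5224, 9 of 12 target genes were lower (75.0%, where 39.4% of all genes were) and 2 were higher (16.7%, where 40.3% of all genes were), with a median log2 fold change of -0.79. Of the 9, 4 were more than 2-fold lower (33.3% of the list, where 10.6% of all genes were), and 1, Foxl1, passed the limit for testing only through its DMSO level. Sfrp1 was at 24.2 and 25.7 RPKM with DMSO and at 1.71 and 1.64 RPKM with T-5224 (log2 fold change -3.55, adjusted p = 1.33e-11, limma). Sox9 was at 123 and 128 RPKM with DMSO and at 36.6 and 35.9 RPKM with T-5224 (log2 fold change -1.77), and Sox2, a stem cell transcription factor, had a log2 fold change of -1.57. Ccne1, a cyclin of S phase entry, was at 5.26 and 3.79 RPKM with DMSO and at 1.64 and 2.06 RPKM with T-5224 (log2 fold change -1.09, adjusted p = 2.75e-05, limma). Sfrp1 was thus higher with SB431542 (log2 fold change 0.25, adjusted p = 0.0314, limma) and lower with T-5224, each within its own table. Ccnd1 and Ccnd2 also went these opposite ways, at -0.745 (adjusted p = 7.25e-07) and -0.51 (adjusted p = 4.37e-06, limma) with T-5224. Foxm1 and Bcl2 were higher with both, at 0.87 and 0.37 with T-5224. Ccnd1, Ccnd2, Foxm1 and Bcl2 are named here after their values were seen.

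**Figure D5:**
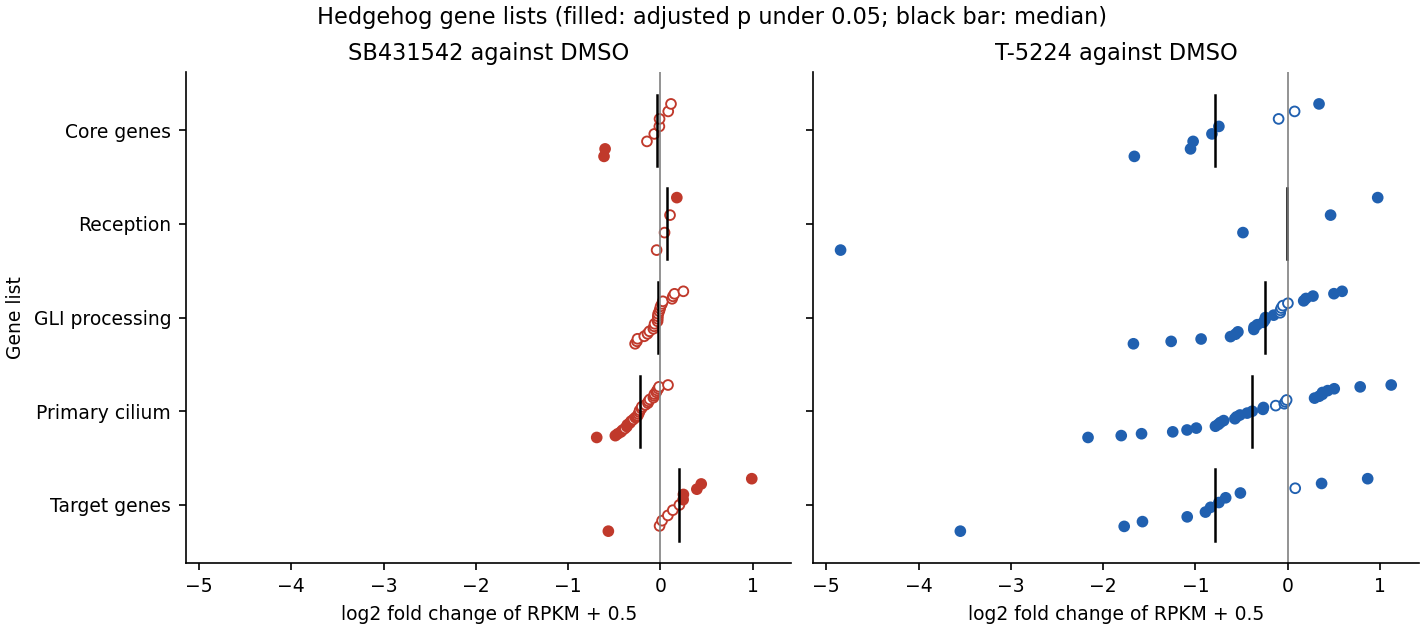
Log2 fold change of RPKM + 0.5 of each gene tested in 5 Hedgehog lists, with SB431542 (left, red) and T-5224 (right, blue); filled points passed an adjusted p of 0.05 and the black bars are medians. The core genes and target genes have medians of -0.78 and -0.79 with T-5224, and -0.04 and 0.21 with SB431542.

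The genes whose values over the 10 libraries were most like those of Gli1 were found among the 10461 others tested in both tables, by Euclidean distance of the log2 values minus the DMSO mean of each table. The nearest were Sfxn3, a mitochondrial carrier, at a distance of 0.188, then Slc2a5, a fructose transporter, Gse1, the vitamin D receptor Vdr and Hip1r, at up to 0.306. Their log2 fold changes were -0.69 to -0.53 with SB431542 and -1.73 to -1.60 with T-5224. The nearest to Gli2 were Clmn, Ctsa, Cpped1, Ski and Add1, at distances of 0.149 to 0.206, with log2 fold changes of -0.17 to -0.10 and -1.09 to -1.02. No other core gene was among either set of 5.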

How the data were processed

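Per the labels and the study's methods, the authors sequenced stranded mRNA libraries, aligned reads to mm9 with TopHat and made the deposited RPKM values per gene with HOMER. The authors' own test used counts, which were not analysed here. All 10 value columns were used. The T-5224 table numbers its DMSO columns 1 and 2, and the labels number these samples 4 and 5. Date-like names, 22 and 23, were dropped.

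Testing was limited to genes whose RPKM averaged 1 or more in a table. Each table was fitted alone in limma (version 3.58.1, R 4.3.3) after adding 0.5 and taking log2, with variances moderated along a trend in mean level, and p-values were adjusted by Benjamini-Hochberg over every gene of the fit. Fold changes on this scale understate those of low genes. Overlap between groups was described gene by gene, and the share of all genes without overlap was not counted. "Lower" and "higher" mean an adjusted p under 0.05, and the 2-fold calls also a log2 fold change beyond 1 in size. The script was tested on simulated data. The core genes, lists and motifs were chosen with earlier results of these data known. All core genes were named, with list genes that changed more than 2-fold or stood first by level, and the 5 nearest to Gli1 and Gli2. Adrbk1 was looked up as Grk2. Positions and the exons checked came from GENCODE vM1 on NCBIM37, the assembly of mm9. The alternatives were a pseudocount of 0.1 or 1, no filter or one at 5 RPKM, median centring, quantile normalization, no trend, each library left out, and for SB431542 a replicate block.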

Additional observations from a re-analysis of the deposited data

How the results depend on the processing

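Of 193 log2 fold changes of core genes recomputed under an alternative, 190 stayed on their side of the threshold, and none of a called gene changed sign. The exceptions were Gli3 with SB431542 without DMSO library 1 and Ptch1 with T-5224 without either T-5224 library. With a mean RPKM of at least 5, Gli1, Gli2 and Ptch1, and Boc in the SB431542 table, were not tested, so that 0 core genes were lower with SB431542, and with T-5224 3 were lower, 0 were higher and 1 was more than 2-fold lower. With that filter 41 genes in all, in place of 63, were more than 2-fold lower with SB431542, and 742, in place of 1144, with T-5224. With single libraries left out, the core genes that were higher numbered 0 to 1 with SB431542 and 0 to 1 with T-5224, and those more than 2-fold lower with T-5224 numbered 2 to 3. That count was also 2 with a pseudocount of 1 and with quantile normalization, where Gli2 was at -0.84 and -0.88. Gli1 stayed between -0.73 and -0.49 with SB431542 (adjusted p at most 0.0386, limma) and between -1.93 and -1.42 with T-5224 over the alternatives that tested it.

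Counts in the wider lists that moved by over 1.5 times were these. With T-5224 and a mean RPKM of at least 5, 8 GLI processing genes were lower in place of 13, 3 cilium genes higher in place of 8 and 1 target gene higher in place of 2. With quantile normalization, 3 GLI processing genes were higher with T-5224 in place of 5. For SB431542 without DMSO library 1, 2 reception genes in place of 1 were higher, 1 ligand or release gene was lower in place of 0, and 1 GLI processing gene was lower and 1 higher in place of 0. Without DMSO library 2 or SB431542 library 1, 1 target gene in place of 0 was more than 2-fold higher. Replicate numbers gave no clear sign of pairing in the SB431542 table, where same-numbered libraries had correlations of -0.15, 0.15 and -0.09. The highest correlations of the same DMSO libraries with other numbers were 0.167, 0.0197 and 0.196. Such values cannot tell whether the libraries were prepared in pairs. With a replicate block, 2 core genes were lower and 0 higher, as without it, and the block left 3 target genes higher in place of 5 and 0 reception genes in place of 1. No paired analysis was possible because the labels share no replicate numbers between the groups of the T-5224 table. Depth limited Hhip, the ligands and genes under the filter. With the filter left off, or with no trend, 1 GLI processing gene was lower with SB431542 in place of 0. With the filter left off, 2 reception genes in place of 1 were more than 2-fold lower with T-5224, 1 in place of 0 was more than 2-fold higher, and 1 ligand or release gene in place of 0 was lower. Without DMSO library 2 or T-5224 library 2, 1 reception gene was also more than 2-fold higher, and 1 target gene in place of 2 was higher without T-5224 library 2. With the filter at 5 RPKM, 1 GLI processing gene in place of 2 was more than 2-fold lower with T-5224.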
